A study of Arabidopsis thaliana with 8 samples.

Results

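The vacuolar H+-ATPase is a rotary proton pump that acidifies the vacuole and the compartments of the secretory pathway. A peripheral sector on the cytosolic side hydrolyses ATP, and a sector embedded in the membrane carries the protons. The pump shares the work of moving protons out of the cytosol with the plasma membrane H+-ATPases, of which AHA1 and AHA2 are the main forms in Arabidopsis. In plants the membrane subunit a decides where the complex resides: the a1 form directs it to the trans-Golgi network, where secretory and endocytic traffic meet, and the a2 and a3 forms to the tonoplast, the membrane around the vacuole.

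The genes described here are the 7 vacuolar H+-ATPase subunit genes chosen by name, out of 13355 genes with a named probe set on the array. Of them, 4 encode membrane subunits: VHA-A1, VHA-A2 and VHA-A3, the 3 forms of subunit a, and AT4G32530, one of the small proteolipid subunits that carry protons, known as c''1. The other 3 encode peripheral subunits: AT3G58730 (VHA-D) forms the central rotor shaft, AT4G02620 (VHA-F) belongs to the same shaft, and AT3G42050, subunit H, is known in yeast as a regulator that silences the peripheral sector once it has come off the membrane. The subunit letters of AT4G32530 and AT3G42050 are general knowledge and are not in the annotation used here. Each gene had 1 named probe set, and all 7 lay in the brighter 50% of the 22746 probe sets tested. Of 28 known loci of the pump, a further 2 had a named probe set, AT5G55290 (subunit e1) and AT4G26710 (e2), both small membrane subunits, and they are given beside the 7. A further 4 probe sets are assigned by the annotation to several genes at once that include genes of the pump, and they are given no gene name. The catalytic subunit A, the subunit B genes and the subunit C gene were not analysed here.

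Total RNA came from whole light-grown Arabidopsis thaliana seedlings, 5 days old, of the Col background, grown upright on diluted Murashige and Skoog medium. The 8 single-colour arrays, 1 per sample, comprised 2 of wild type, 3 of aha1 plants (aha1-6 on 2 arrays, aha1-7 on 1, replicate 3) and 3 of aha2 plants (aha2-4 on 2, aha2-5 on 1, replicate 3). A string shared by the sample descriptions divides the arrays into a first set, which holds replicate 1 of every group, and a second set with all others. The labels do not state whether the replicates were grown separately. The p-values therefore reflect the spread among these 8 RNA samples, part of which may be technical. Signals are the deposited linear intensity values, log2 values are normalized (quantile, with 1 added before the logarithm), and errors are SD over arrays. Signals of different probe sets are not comparable, so no order of level among the genes is given. In RNA from whole seedlings, fewer cells of a type and less RNA per cell cannot be told apart.

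The aha1-7 array stood apart. Over the 11373 brighter probe sets it was over 2-fold away from the mean of the other 7 at 1201, compared with at most 53 for any other array. Its deviation followed gene span, the distance from gene start to gene end with introns included: over 5883 brighter named genes, Spearman's rho of deviation with span was 0.69 on this array and from -0.30 to 0.28 on the others, where genes are not independent replicates. This bears on the pump, whose genes fall into long and short ones: VHA-A1, VHA-A2, VHA-A3 and AT3G42050 span 4947 to 6278 bases, and AT4G32530, AT3G58730 and AT4G02620 span 1866 to 2170. Values of aha1 are therefore given with and without this array. With 1 array of aha1-7, the allele and the array cannot be told apart. Organ markers were few. The root beta-glucosidase PYK10 had a mean signal of 31081 in wild type, 35349 in aha1 and 29287 in aha2, and the root hair expansin EXPA7 had 355, 252 and 439 in the same order. RCA, the activase of Rubisco and a leaf marker, had 38626, 49220 and 44621. After normalization, the fitted log2 differences from wild type in aha1 and aha2 were 0.02 and -0.13 for PYK10 (SE 0.20). They were -0.49 and 0.45 for EXPA7 (SE 0.35) and 0.14 and 0.12 for RCA (SE 0.18), and none passed the test. Of the fixed markers, 2 of 9 for root and 1 of 14 for shoot photosynthesis were measured.

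The main question was whether the loss of either plasma membrane pump goes with a different level of vacuolar pump transcripts. No member passed the test in either mutant. In aha1 against wild type, 0 of 7 members were called and 0% of all 22746 probe sets were (limma, adjusted p from 0.937 to 0.975 for the members). In aha2 against wild type the count was also 0 of 7, with 0% of all probe sets called (limma, adjusted p = 1 for every member). Between the mutants it was 0 of 7, again with 0% called (limma, adjusted p from 0.543 to 0.796). At an unadjusted p under 0.05 the members numbered 0 in each of the 3 comparisons, against 5.01%, 4.04% and 10.6% of all probe sets. Over the brighter probe sets alone, where 0%, 0.0264% and 0.176% of probe sets were called in the same order, the members again numbered 0, 0 and 0. With those probe sets and no aha1-7 array, the called share was 0.246%, 0.536% and 3.15%, and the members called were 0, 0 and 0 (smallest adjusted p = 0.189 in limma, for AT3G58730 between the mutants). The unadjusted p of AT3G58730 there was 0.0294 (limma). With all probe sets and no aha1-7 array, 11.5% had an unadjusted p under 0.05 between the mutants, and 0 members did.

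In aha1 the fitted fold changes ran from -0.27 to 0.17 on the log2 scale, with 4 positive and 3 negative and a median of 0.06, against a median of 0.00 over all tested probe sets. Without aha1-7 this balance turned, with 2 positive, 4 negative and AT4G32530 at 0.00 (median -0.03). With the trend in gene span removed all 7 were negative, each by less than its SE. The median was then -0.09, against -0.04 over the brighter named probe sets. Each array's trend was fitted to its deviation from the mean of the other arrays, so its removal overcorrects somewhat. Signs of values near 0 under this setting can therefore come from the removal, and no direction is read from them. In aha2 they ran from -0.19 to 0.19, with 4 positive and 3 negative and a median of 0.05, against -0.01 over all. Between the mutants the range was wider, from -0.47 to 0.33, with 4 positive and 3 negative and a median of 0.10, against 0.02 over all. Without aha1-7 it ran from -0.36 to 0.07, with a median of -0.01. With the trend in gene span removed 1 was positive and 6 negative (median -0.16, against -0.04 over the brighter named probe sets). The comparisons with wild type share their wild type arrays. The precision differed between genes. The 95% interval for VHA-A1 in aha1 ran from 0.83-fold to 1.47-fold, while that for AT4G02620 ran from 0.448-fold to 1.53-fold. Without the aha1-7 array the intervals were narrower for AT4G02620 in aha1, from 0.816-fold to 1.34-fold, and for VHA-A3, from 0.694-fold to 1.16-fold. The intervals do not show that the levels were equal.

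**Figure D1:**
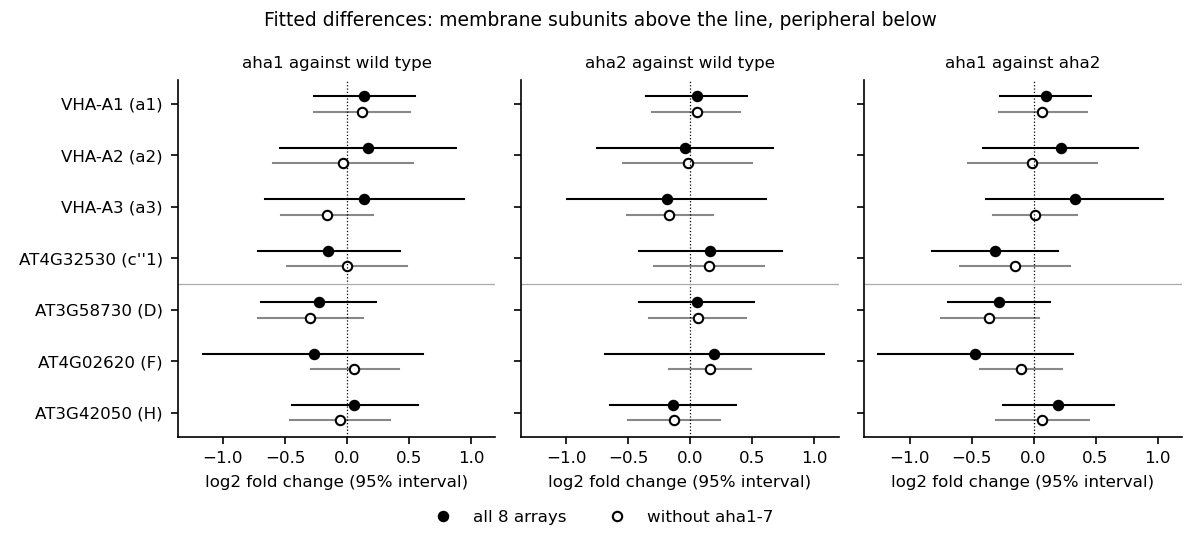
Fitted log2 fold changes (dots) with 95% intervals (lines) for the 7 genes in the 3 comparisons, from all 8 arrays (filled, black lines) and without the aha1-7 array (open, grey lines). Every interval includes 0, and the widest one for aha1 against wild type, that of AT4G02620, runs from -1.16 to 0.61 with all arrays and from -0.29 to 0.42 without aha1-7.

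Among the membrane subunits, VHA-A1, the trans-Golgi network form, had the narrowest range. Its signal was 1161 and 1107 on the wild type arrays, 1212 and 1288 on the aha1-6 arrays, 1367 on the aha1-7 array, 1134 and 1077 on the aha2-4 arrays and 1216 on the aha2-5 array. All 3 aha1 arrays lay above both wild type arrays, while the aha2 arrays spanned the wild type values. The wild type mean was 10.15 ± 0.04 in log2 values (SD, n = 2) and the aha1 mean 10.29 ± 0.07 (SD, n = 3), a fitted difference of 0.14 (SE 0.17; limma, adjusted p = 0.937). Within the sets, aha1 differed from wild type by 0.04 in the first and by 0.20 and 0.23 in the second. Without aha1-7 the fitted difference was 0.12. Among the brighter probe sets, 9.98% had all aha1 arrays above both wild type arrays.

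VHA-A2, a tonoplast form, was high on 1 array. Its signal was 1614 and 1939 in wild type, 1670 and 1821 in aha1-6, 2902 in aha1-7, 1865 and 1472 in aha2-4 and 1904 in aha2-5. The aha1-6 and aha2 arrays overlapped the wild type range, and aha1-7 exceeded every other array. The fitted differences from wild type were 0.17 (SE 0.29) in aha1 and -0.04 (SE 0.29) in aha2, and without aha1-7 they were -0.03 and -0.02.

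VHA-A3, the other tonoplast form, had the same outlying array. Its signal was 4487 and 3873 in wild type, 3923 and 3488 in aha1-6, 6476 in aha1-7, 4257 and 3278 in aha2-4 and 3567 in aha2-5. Compared with the wild type array of its set, each aha1-6 and aha2 array was lower, by log2 differences between -0.28 and -0.09, and aha1-7 was higher by 0.79. These differences rest on 2 wild type arrays, and across sets both mutants overlapped wild type. The share of probe sets with such a pattern was not determined. The fitted difference in aha1 was 0.14 (SE 0.33) with all arrays and -0.16 (SE 0.14) without aha1-7 (limma, adjusted p = 0.962 and 0.835). In aha2 it was -0.19 (SE 0.33) and -0.17 (SE 0.13).

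AT4G32530, the proteolipid c''1 gene, went the other way on the aha1-7 array. Its signal was 3294 and 3104 in wild type, 3113 and 3200 in aha1-6, 2329 in aha1-7, 3513 and 4201 in aha2-4 and 3162 in aha2-5. The aha1-6 values lay inside the wild type range, aha1-7 was the lowest of all, and an aha2-4 array was the highest. The fitted differences from wild type were -0.15 (SE 0.24) in aha1, or 0.00 without aha1-7, and 0.16 (SE 0.24) in aha2.

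Of the peripheral subunits, the rotor gene AT3G58730 was the 1 member whose aha1 arrays lay apart from both other groups. Its signal was 6177 and 6574 in wild type, 5307 and 4890 in aha1-6, 5595 in aha1-7, 7741 and 6467 in aha2-4 and 6195 in aha2-5. Every aha1 array, aha1-7 included, was below every wild type and aha2 array. The log2 mean of aha1 was 12.40 ± 0.12 (SD, n = 3), that of wild type 12.64 ± 0.06 (SD, n = 2) and that of aha2 12.68 ± 0.18 (SD, n = 3).

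The difference at AT3G58730 did not pass the test. The aha1 mean was lower than wild type by a fitted 1.17-fold (log2 fold change -0.23, SE 0.19; limma, adjusted p = 0.937) and lower than aha2 by 1.21-fold (-0.28, SE 0.17; adjusted p = 0.543). Within the sets, the aha1 arrays differed from wild type by -0.17 in the first and by -0.41 and -0.18 in the second. Without aha1-7 the fitted values were -0.30 against wild type and -0.36 against aha2 (limma, adjusted p = 0.756 and 0.459). With the trend in gene span removed they were smaller, -0.14 (SE 0.21) against wild type and -0.16 (SE 0.18) against aha2 (limma, adjusted p = 0.972 and 0.798). Without wild type replicate 2 the value against wild type was -0.085, and without aha2 replicate 1 the value against aha2 was -0.172. The same order of arrays is common among the brighter probe sets: 8.93% had every aha1 array below every wild type array, and 9.79% had every aha1 array below every aha2 array. The measured root markers lay on opposite sides between the mutants. EXPA7 was at 7.87 ± 0.60 in aha1 (SD, n = 3), or 8.20 ± 0.22 in aha1-6 alone (SD, n = 2), and at 8.81 ± 0.27 in aha2 (SD, n = 3; limma, adjusted p = 0.415), while PYK10 differed by 0.16 (adjusted p = 0.723). Their part in the AT3G58730 difference was not tested.

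AT4G02620, the other rotor gene, had the lowest aha1-7 value of the 7 relative to the other arrays. Its signal was 5367 and 6087 in wild type, 5306 and 6375 in aha1-6, 3052 in aha1-7, 6073 and 7418 in aha2-4 and 6825 in aha2-5. The aha1-6 arrays spanned the wild type pair, and each aha2 array was above the wild type array of its set, by log2 differences of 0.15, 0.23 and 0.12. Across sets the aha2 values overlapped those of wild type. The fitted difference in aha2 was 0.19 (SE 0.36), or 0.16 (SE 0.12) without aha1-7, where the shared estimate of the spread was smaller (limma, adjusted p = 1 and 0.888). In aha1 it was -0.27 (SE 0.36) with all arrays and 0.06 (SE 0.13) without aha1-7.

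AT3G42050, the subunit H gene, was nearly constant in aha2. Its signal was 6969 and 6779 in wild type, 5854 and 7333 in aha1-6, 8461 in aha1-7, 6500 and 6802 in aha2-4 and 6494 in aha2-5. In normalized log2 values the aha2 arrays were at 12.64 ± 0.02 (SD, n = 3), all of them below the wild type arrays at 12.76 ± 0.03 (SD, n = 2), whereas the deposited signals of the groups overlapped. The fitted difference in aha2 was -0.14 (SE 0.21; limma, adjusted p = 1). Among the brighter probe sets, 10.3% had every aha2 array below both wild type arrays. In aha1 the arrays lay on both sides of wild type, with a fitted difference of 0.06 (SE 0.21), or -0.06 without aha1-7.

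**Figure D2:**
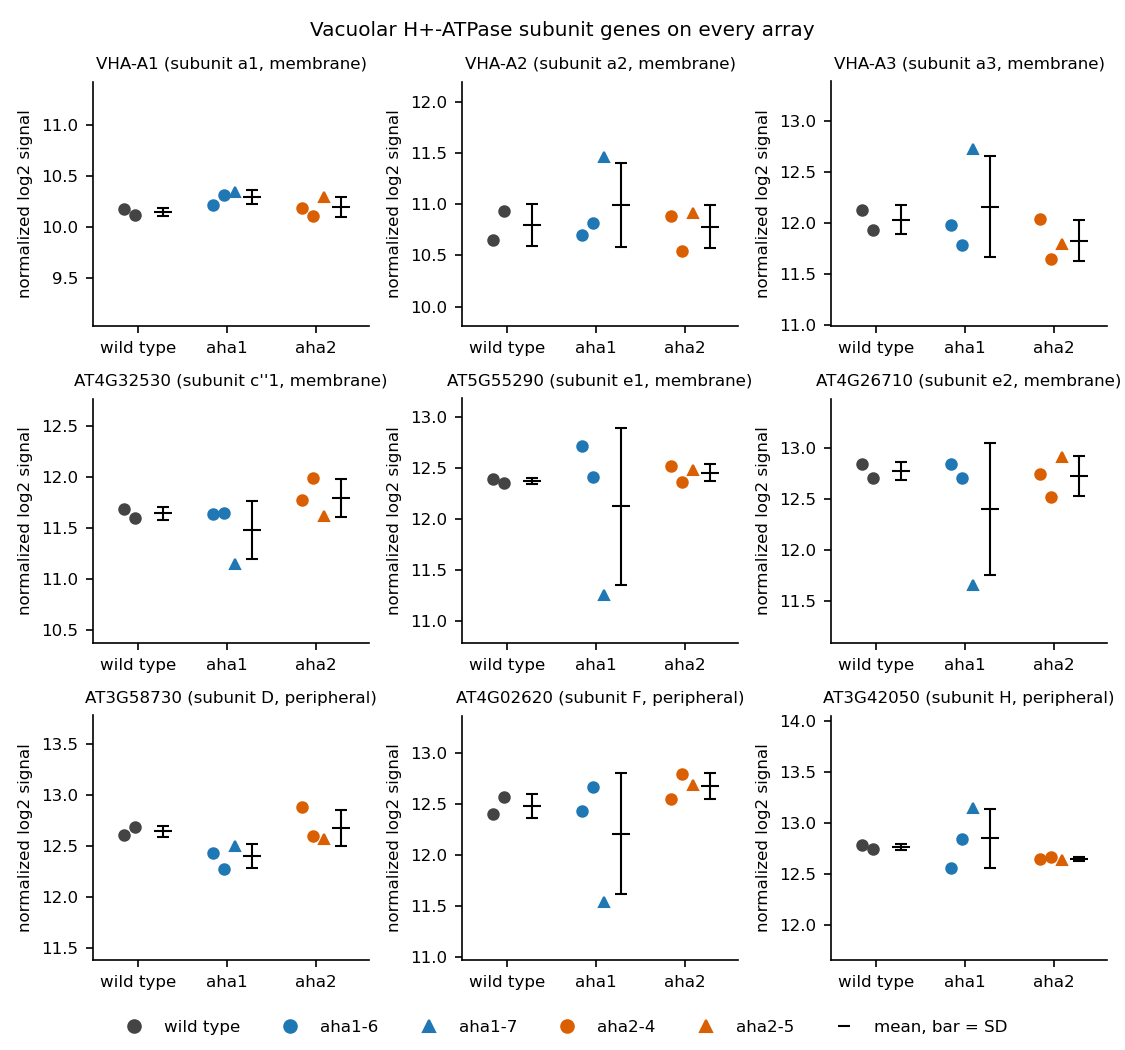
Normalized log2 signal (vertical axis, the same height of scale in each panel) of the 7 genes and of the e1 and e2 genes by group, 1 point per array, with the group mean and SD beside the points. The aha1-7 array (blue triangle) is high at VHA-A2, VHA-A3 and AT3G42050 and low at AT4G32530, AT4G02620, AT5G55290 and AT4G26710. At AT3G58730 all 3 aha1 arrays lie below the other groups.

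In all, groups did not overlap for 2 of 7 members in aha1 against wild type (VHA-A1 higher, AT3G58730 lower), where 18.9% of brighter probe sets did not overlap in either direction. In aha2 against wild type this was 1 of 7 (AT3G42050), against 21.3%, and between the mutants 1 of 7 (AT3G58730), against 20.1%. These shares are near the background. The members' range over the 7 arrays without aha1-7 was 0.20 for VHA-A1, between 0.28 and 0.48 for 5 others and 0.61 for AT3G58730, and the median range of the brighter probe sets was 0.57. With aha1-7 included, the widest ranges were 1.26 for AT4G02620 and 1.06 for VHA-A3.

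Membrane and peripheral subunits were compared as sectors, each taken as the mean log2 difference of its genes from wild type. The membrane minus peripheral difference was 0.04 and -0.04 on the wild type arrays, 0.13 and 0.02 on the aha1-6 arrays, 0.50 on the aha1-7 array, 0.01 and -0.14 on the aha2-4 arrays and 0.00 on the aha2-5 array. The aha1-7 array alone stood far from the rest, and the other 7 lay between -0.14 and 0.13. The mean was 0.22 ± 0.25 over the aha1 arrays (SD, n = 3), 0.08 ± 0.08 over the aha1-6 arrays alone (SD, n = 2) and -0.04 ± 0.08 over the aha2 arrays (SD, n = 3). On the aha1-6 arrays the membrane genes were at -0.02 and -0.01 and the peripheral genes at -0.16 and -0.04. The aha2 arrays had membrane means between -0.08 and 0.07 and peripheral means between 0.00 and 0.06.

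On the aha1-7 array, members of both sectors lay above and below the other arrays. In the membrane sector the long genes VHA-A2 and VHA-A3 were above the mean of the other arrays by 0.69 and 0.82, and VHA-A1 by 0.15, while the short gene AT4G32530 was at -0.56. In the peripheral sector the long gene AT3G42050 was at 0.44, and the short genes AT4G02620 and AT3G58730 were at -1.04 and -0.07. All 4 long genes were above and all 3 short genes below, AT3G58730 by less than the SD of the other arrays (0.19). For brighter named genes in general the median deviation on this array was 0.54 over 5500 bases, 0.49 from 4000 to 5500 bases and -0.25 from 1500 to 2500 bases, over 309, 527 and 2203 genes.

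Taken by span in place of sector, a grouping made after the values were seen, the long genes minus the short genes came to 1.01 on the aha1-7 array. On the other 7 arrays this difference lay between -0.39, on the second aha2-4 array, and 0.07. When the trend with span was removed from every array, the membrane minus peripheral difference fitted for aha1 against aha2 was 0.065, compared with 0.263 before. For aha1 against wild type it was 0.103, compared with 0.221, and for aha2 against wild type 0.039, compared with -0.041. The overcorrection named above applies to these values too. The genes of equal span class still differed on aha1-7: VHA-A1 was below the lower quartile of its class (0.36) and VHA-A3 above the upper quartile (0.74), although the 3 genes of subunit a are within 5806 to 6278 bases. AT4G02620 was below the lower quartile of its class (-0.65).

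**Figure D3:**
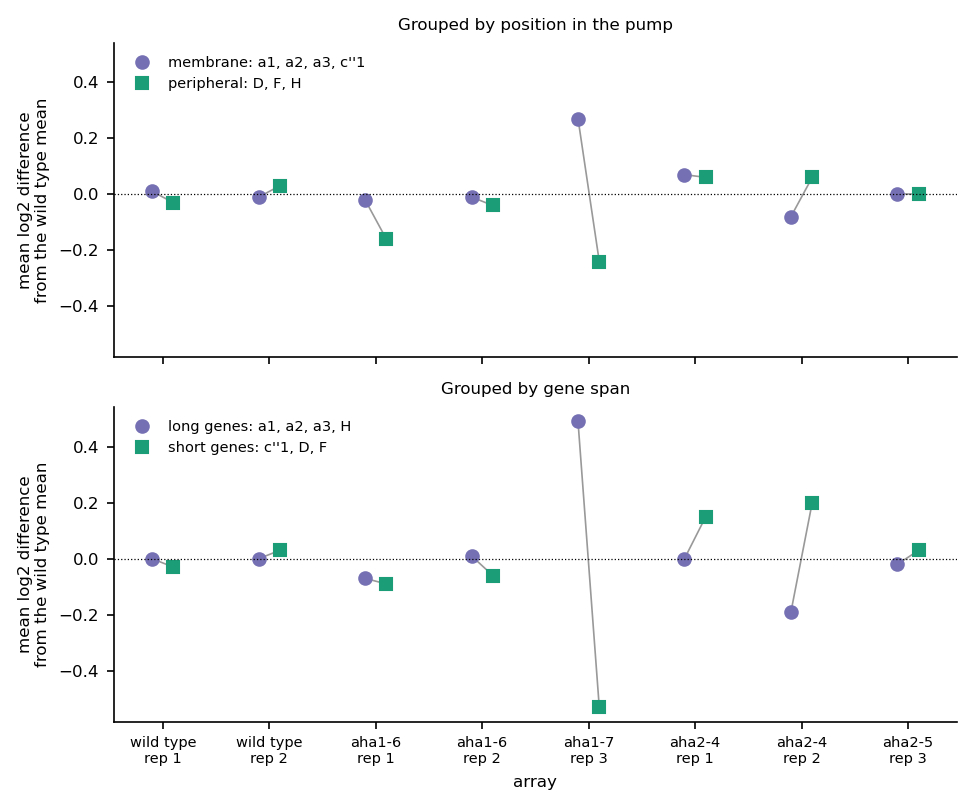
Mean log2 difference from the wild type mean on each array, for the genes grouped as membrane and peripheral subunits (upper panel) and as long and short genes (lower panel). On the aha1-7 array the sectors are 0.50 apart and the span groups 1.01 apart.

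**Figure D4:**
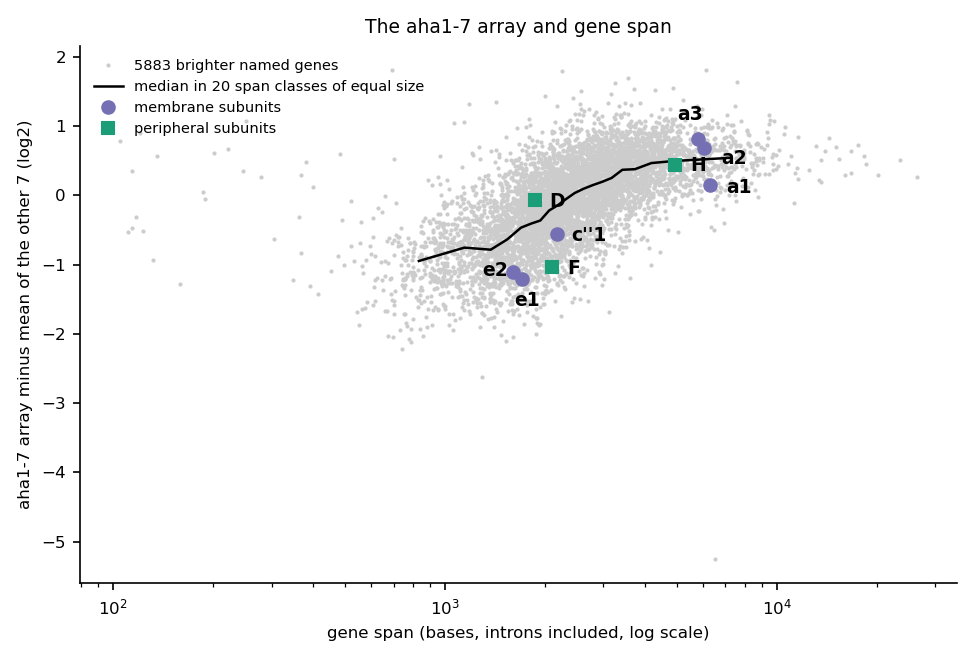
Deviation of the aha1-7 array from the mean of the other 7 arrays (log2, vertical axis) against gene span in bases (log scale) for 5883 brighter named genes (grey, with the median in 20 span classes as a line) and for the pump genes, marked by subunit letter. Subunits a1, a2, a3 and H lie above 0 with the long genes, and F, c''1, e1 and e2 below 0 with the short ones.

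The tonoplast forms of subunit a were also set against the trans-Golgi network form, as the mean of VHA-A2 and VHA-A3 minus VHA-A1, relative to wild type. This difference was -0.05 and 0.05 on the wild type arrays, -0.15 and -0.28 on the aha1-6 arrays, 0.48 on the aha1-7 array, 0.01 and -0.28 on the aha2-4 arrays and -0.21 on the aha2-5 array. Of the 6 mutant arrays, 4 lay below both wild type arrays, 1 lay between them and aha1-7 lay above. The values are centred on the mean of the wild type pair, which therefore lies on both sides of it by construction. The share of other gene combinations with such a pattern was not determined. Whether this difference departs from wild type in either mutant was not tested, and no direction is read from the count. The mean was 0.02 ± 0.41 over the aha1 arrays (SD, n = 3) and -0.16 ± 0.15 over the aha2 arrays (SD, n = 3). The aha1-6 arrays and the aha1-7 array lay on opposite sides of wild type.

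The 2 further membrane subunits, whose genes span 1708 and 1608 bases, were low on the aha1-7 array as well. AT5G55290 (e1) had a signal of 5308 and 5202 in wild type, 6491 and 5376 in aha1-6, 2492 in aha1-7, 5927 and 5502 in aha2-4 and 5835 in aha2-5. AT4G26710 (e2) had 7338 and 6678 in wild type, 7070 and 6600 in aha1-6, 3301 in aha1-7, 7066 and 6152 in aha2-4 and 7910 in aha2-5. On that array they were at -1.21 and -1.1 from the mean of the others, below the lower quartile of their span class (-0.65). Of the short peripheral genes, AT4G02620 was at -1.04 and AT3G58730 at -0.07. Neither AT5G55290 nor AT4G26710 passed in any comparison. Their fitted differences in aha1 against wild type were -0.18 (SE 0.40) and -0.32 (SE 0.37), and 0.19 and 0.00 without aha1-7. With both added to the membrane sector, the membrane minus peripheral difference for aha1 against wild type was 0.11, compared with 0.22 over the 7 genes.

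Other proton-driven transport of the vacuole was covered thinly. Of 3 proton pyrophosphatases, the second type of pump on the tonoplast, and of 10 tonoplast aquaporins, 0 had a named probe set. Of 21 proton-coupled exchangers and carriers 3 did, the tonoplast monosaccharide transporters TMT1, TMT2 and TMT3, which load sugars into the vacuole, and 0 passed in any direction in the 3 comparisons. For TMT1 the wild type mean was 11.18 ± 0.13 (SD, n = 2), the aha1 mean 11.29 ± 0.42 (SD, n = 3) and the aha2 mean 11.24 ± 0.06 (SD, n = 3). For TMT2 they were 10.01 ± 0.24 (SD, n = 2), 10.28 ± 0.45 (SD, n = 3) and 10.02 ± 0.11 (SD, n = 3) in the same order. These were also high on the aha1-7 array, by 0.58 and 0.75 over the mean of the other arrays. TMT3, in the dimmer 50% of probe sets, was at 6.90 ± 0.07 (SD, n = 2), 6.91 ± 0.67 (SD, n = 3) and 6.82 ± 0.51 (SD, n = 3).

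The mean of the centred values of the 7 pump genes moved over a range of 0.14. The Pearson correlation of this mean with the single members ran from -0.40 (AT4G02620) to 0.64 (VHA-A2) over the 8 arrays. Without aha1-7 it ran from -0.15 (VHA-A1) to 0.78 (AT3G58730), with AT4G02620 at 0.14. Each member is itself part of the mean, which raises its correlation with it. The genes most like this mean, out of 5874 brighter named ones, were AT5G48310 (0.955), AT1G16180 (0.932), AT5G14790 (0.910), AT1G72800 (0.896) and AT2G39130 (0.894). Over the 7 arrays without aha1-7 they were AT2G20760 (0.957), AT5G48310 (0.942), PSBY (0.942), AT5G26110 (0.940) and AT2G47330 (0.935). The points share their arrays and normalization, and no p-value is given for these correlations. The named genes are the highest of 5874 over 8 or 7 arrays, a search that gives high values even among unrelated genes. They are therefore not shown to be expressed together with the pump genes.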

How the data were processed

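Per the submitters' processing notes, the authors used Affymetrix Expression Console 1.1, and the deposited table holds 1 linear intensity per probe set and array. The step that summarised probes is not stated in the sources used here. On each array the 2% trimmed mean was 1000.1, and medians ran from 358.1 to 410.2. The logarithm was log2(value + 1), followed by quantile normalization across 22810 probe sets. Without the 64 controls, 22746 were tested. The model held group and set and used all 8 arrays (limma 3.58.1, R 4.3.3, functions lmFit and eBayes). It left 4 residual degrees of freedom, and Benjamini-Hochberg adjustment ran over all probe sets, with a threshold of 0.05. The fit was also tested on simulated data with independent normal noise. Those data held no span trend and no outlying array, so that test cannot show how the fit handles either. Gene names came from the platform annotation (13513 probe sets with a single gene, 503 with several, 8730 with none), with symbols and spans from the RefSeq table of TAIR10.1. Replicates are numbered in accession order.

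The members, lists and tests were chosen with earlier results of these data known. All 7 genes are named, as are up to 3 genes per list with the smallest p and the 5 genes most like the members' mean. Alternatives were another scaling, offset, dim-probe filter and set treatment, removal of the span trend, and each array left out. The span trend of an array was fitted to its deviation from the mean of the other arrays. That deviation is larger than the one from the mean of all arrays. Subtracting its fit therefore overcorrects and leaves a small trend in the reverse direction. No probe set is annotated to AHA1 or AHA2 in the table used here (0 by gene identifier), so the targeted genes were not checked and genotype was taken from the source labels as given.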

Additional observations from a re-analysis of the deposited data

How the results depend on the processing

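All 21 member values (7 genes in 3 comparisons) stayed uncalled under all 15 alternative settings (limma, smallest adjusted p = 0.189), and 289 of 315 kept their sign. The sign was counted as turned in 26, among them AT4G32530 in aha1 against wild type at a value of 0. They are given below as log2 fold changes, or as ranges where each array was left out. Some of the 315 could not turn, because the dim-probe filter alone leaves every fold change as it was. Together with the removal of aha1-7, it repeats the fold changes of leaving out that array, so those reversals are counted again. Leaving out an array of the group outside a comparison moves its values little. The counts therefore overstate how far the signs were tested. Removal of the span trend overcorrects, so turns to values near 0 under it can come from the removal. With the span trend removed, aha1 against wild type gave -0.042 for VHA-A1, -0.008 for VHA-A2, -0.038 for VHA-A3 and -0.090 for AT3G42050, with a median over the 7 of -0.090. Under the same setting aha1 against aha2 gave -0.230 for VHA-A1, -0.102 for VHA-A2 and -0.065 for AT3G42050, with a median of -0.157 and a membrane minus peripheral difference of 0.065, and aha2 against wild type gave 0.094 for VHA-A2. With the dimmer probe sets and aha1-7 both left out, aha1 against wild type gave -0.035 for VHA-A2 (also the median), -0.157 for VHA-A3, 0 for AT4G32530, 0.062 for AT4G02620 and -0.058 for AT3G42050. Between the mutants VHA-A2 was at -0.012, again the median. Of the 11373 brighter probe sets, this setting called 28 in aha1 against wild type, 61 in aha2 against wild type and 358 between the mutants. The filter on dim probe sets alone called 0, 3 and 20 of them. With each array left out in turn, aha1 against wild type ran from -0.035 to 0.338 for VHA-A2, from -0.157 to 0.351 for VHA-A3, from -0.250 to 0 for AT4G32530, from -0.500 to 0.062 for AT4G02620, from -0.082 to 0.236 for AT3G42050 and from -0.082 to 0.197 for the median. In the same way aha2 against wild type ran from -0.019 to 0.104 for VHA-A1, from -0.251 to 0.108 for VHA-A2, from -0.072 to 0.194 for AT3G58730 and from -0.072 to 0.079 for the median. Between the mutants VHA-A2 ran from -0.012 to 0.390 and the median from -0.012 to 0.142. For AT3G58730 in aha1 against wild type the range was -0.342 to -0.085, the latter without wild type replicate 2. The fit with no set term, that is with no replicate block, gave medians of 0.088, 0.034 and 0.095. No gene had a further named probe set to compare. Adding the e1 and e2 genes to the membrane subunits was chosen after seeing the data. The cause of these shifts was not tested beyond the settings themselves. The number of arrays limits the precision of every value.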
